A study of Mus musculus with 10 samples.

Results

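Acute phase proteins are plasma proteins that the liver releases in larger or smaller amounts during inflammation, and 10 of their genes were followed here in fetal mouse liver: Itih4, Hpx, Cp, Hamp, Lbp, Saa4, Hp, Crp, Saa3 and Serpina3n. The array holds 20 probe sets annotated with 1 of these symbols and no other, among 34945 probe sets with a single symbol and 45037 in all. Of the 20, 17 were bright enough to be tested, and each of the 10 genes had at least 1 of them, out of 11778 genes tested. Levels were measured on 1 Affymetrix expression array for each of 10 individual livers at embryonic day 14.5. Of these, 5 came from Zfp36l2 knockout fetuses (KO) and 5 from wild type fetuses (WT), all on a mixed background of the b6 and 129 strains. Zfp36l2 encodes an RNA-binding protein that promotes the decay of mRNAs with AU-rich elements, and the comparison asks how liver transcripts differ without it. The labels do not say which cells lack the gene, how the allele was made or whether littermates were compared.

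In the adult liver, interleukin 6 acting through STAT3, interleukin 1 acting through NF-kappa-B, and C/EBP factors switch these genes on in hepatocytes. Hepcidin, the product of Hamp, is in addition controlled by iron through bone morphogenetic protein (BMP) signals. In mice the inducible proteins with the strongest response are Saa1 and Saa2, serum amyloid A forms, and Orm1, an orosomucoid, while Crp responds only weakly. At mid-gestation the liver is also the main blood-forming organ, so hepatocyte precursors are mixed with erythroid, megakaryocytic and myeloid cells. In whole-liver RNA, fewer cells of a type and less RNA per cell cannot be told apart.

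The stretches upstream of 3 of the genes are shown because they hold letters that match sites of these factors and because the genes' levels over livers are compared below. They are the 250 bases before the start of each gene in RefSeq (GRCm38.p6), on the strand of the gene, for Hamp at chr7:30944030-30944279 on the minus strand, Itih4 at chr14:30886226-30886475 on the plus strand and Saa4 at chr7:46732604-46732853 on the minus strand. Capitals mark motif matches, namely the BMP element GGCGCC and the STAT motif TTCNNNGAA in Hamp, the STAT motif in Itih4, and the C/EBP motif TTGCNNAA, on either strand, in Saa4.
Hamp: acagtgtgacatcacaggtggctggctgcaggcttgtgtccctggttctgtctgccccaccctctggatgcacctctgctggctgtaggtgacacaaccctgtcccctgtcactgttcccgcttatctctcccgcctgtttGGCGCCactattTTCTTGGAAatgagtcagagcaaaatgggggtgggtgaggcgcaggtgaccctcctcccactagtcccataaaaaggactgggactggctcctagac
Itih4: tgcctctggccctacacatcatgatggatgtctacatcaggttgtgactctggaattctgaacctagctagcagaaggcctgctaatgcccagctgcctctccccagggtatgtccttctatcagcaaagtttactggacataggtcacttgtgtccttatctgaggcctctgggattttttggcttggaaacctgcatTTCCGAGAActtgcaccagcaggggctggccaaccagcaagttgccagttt
Saa4: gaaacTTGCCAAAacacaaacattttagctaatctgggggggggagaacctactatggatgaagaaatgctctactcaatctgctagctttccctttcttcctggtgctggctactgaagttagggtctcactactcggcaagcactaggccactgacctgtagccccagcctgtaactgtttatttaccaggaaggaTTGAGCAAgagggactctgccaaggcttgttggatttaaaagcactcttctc

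Of the 10 genes, 8 had such a window, and Cp had more than 1. The STAT motif was found in the windows of Hamp, as TTCTTGGAA at positions -97 to -89 from the gene's start, and of Itih4, as TTCCGAGAA at -51 to -43. It is found in 7.02% of all 32851 windows of this length. The BMP element lay at -109 to -104 in Hamp and in no other of the 8 genes, and 9.59% of all windows hold it. The C/EBP motif was found for 4 genes, Cp, Hpx, Saa3 and Saa4, against 9.56% of all windows. HNF1 (GTTAATNAT) and TATA box (TATAAA) letters were found for 1 and 2 genes, against 0.737% and 12.4% of windows. The stricter STAT3 form (TTCCNGGAA), NF-kappa-B (GGANNTTCC) and HNF4 (CAAAGTCCA) letters were in none of the 8 and in 0.913%, 3.59% and 0.384% of windows. All motifs were searched on both strands, and the stricter STAT3 form overlaps the STAT motif.

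Values are normalized array intensities in arbitrary units, and a level can be compared between livers for 1 probe set but not between probe sets. A gene is given by its brightest probe set, and gene positions are those of RefSeq on GRCm38.p6. Zfp36l2 itself averaged 102 ± 11.3 in KO livers and 434 ± 91.0 in WT livers (SD, n = 5 each), and its genotypes did not overlap (limma adjusted p = 3.17e-06), as labelled. A dimmer tested probe set of Zfp36l2 read 25 ± 7.77 units in KO and 31.4 ± 10.8 units in WT livers. There the genotypes overlapped (limma adjusted p = 0.848), and a further probe set was too dim to be tested. Array medians before normalization ran from 19.5 to 25.01 units. Each array correlated with the remaining ones at a mean r of 0.952 to 0.958. As a check of the labelled tissue, all 9 hepatocyte genes with a probe set were bright enough to be tested, with Afp, the fetal plasma protein gene, at 16287 ± 366 units in KO and 16358 ± 247 units in WT livers.

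None of the 10 acute phase genes passed the test of KO against WT livers. The log2 difference was positive for all 10, as for 50.5% of all tested genes, but that of Serpina3n, the dimmest, turned negative in 4 of the alternatives tried and counts for no direction. The other 9 stayed positive in every alternative run. The members' median log2 difference was 0.55, beside a median of 0.00 over all tested genes. The test was limma's moderated test at 0.05, with p-values adjusted by Benjamini-Hochberg across the 24218 probe sets tested. It called 0.161% of all tested genes higher in KO and 0.195% lower (0.357% in either direction). The lowest adjusted p among the 10 genes was 0.151 for Itih4, and among all 17 probe sets 0.104 for a dimmer probe set of Cp. At an unadjusted p under 0.05, 7 of 10 genes were higher in KO livers, as were 6.31% of all tested genes, and 0 of 10 lower, against 5.71%. In 0 of 10 genes did every KO liver lie above every WT liver, which 1.45% of all tested genes did, and in 0 of 10 did every KO liver lie below every WT liver, against 1.53%. Leaving out the liver WT replicate 5 changed this count: limma then called Itih4, Cp, Lbp and Saa4 higher, 4 of 10, against 0.679% of all tested genes. No other single liver, left out, gave a call among the 10. WT replicate 5 stands out through these same values, as the highest WT liver in 7 of 10 genes. Over the whole array its mean r with the other livers was 0.954. The calls without it thus show dependence on 1 liver and are no separate support for a difference. The median difference was 0.77 without WT replicate 5 and 0.41 without KO replicate 5.

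**Figure D1:**
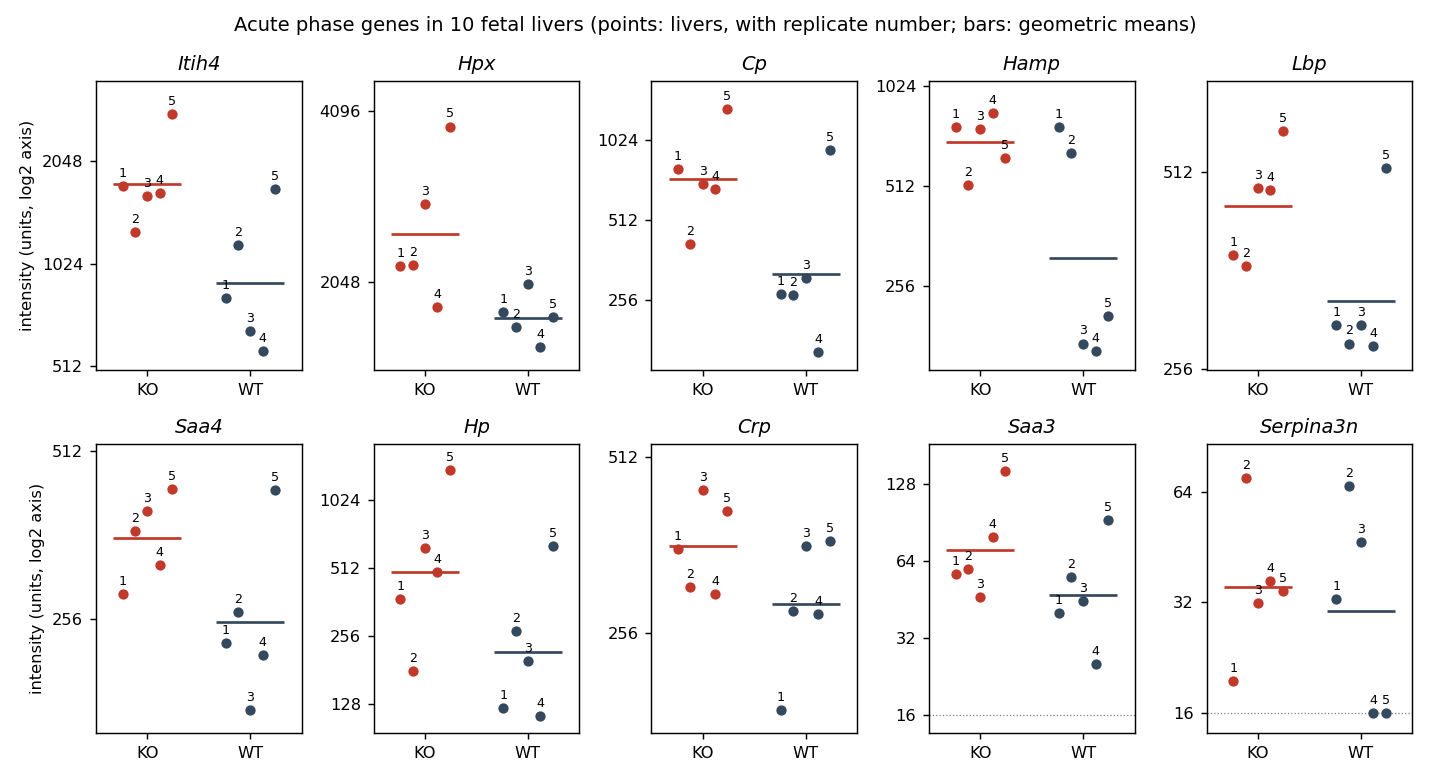
Normalized intensity (log2 axis, units) of the 10 acute phase genes in KO livers (left, red) and WT livers (right, blue), each point a liver with its replicate number and each bar the geometric mean of 5 livers, with a dotted line at the floor of 16. WT replicate 5 lies within the KO range in Cp, Lbp, Saa4 and Hp, and Hamp in WT replicates 3 to 5 lies at 163 to 208 units, under every other liver.

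The products of Cp, Hp, Hpx and Hamp handle metals, haem and haemoglobin. Cp (chr3:19956933-20009750) encodes ceruloplasmin, the copper-binding ferroxidase of plasma. Its brightest probe set read 798, 415, 698, 666 and 1335 units in KO replicates 1 to 5, against 269, 267, 309, 162 and 938 units in WT replicates 1 to 5. All KO livers lay above WT replicates 1 to 4, and WT replicate 5 lay above every KO liver but 1, so the genotypes overlapped. The mean was 782 ± 339.7 units in KO and 389 ± 312 units in WT livers (SD, n = 5 each), a log2 difference of 1.19 ± 0.37 (SE; limma adjusted p = 0.228). Without WT replicate 5 it was 1.57 (limma adjusted p = 0.0129), and without KO replicate 5 it was 0.97 (limma adjusted p = 0.386). Cp has 8 probe sets, and the 5 that were tested gave log2 differences of 1.19 to 1.32 with adjusted p of 0.104 to 0.243. The other 3 never read above 27 units.

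Hp (chr8:109575128-109579172) encodes haptoglobin, which binds free haemoglobin and is made by hepatocytes and also stored in granules of neutrophils. It read 373, 179.9, 631, 494 and 1398 units in KO replicates 1 to 5, against 124, 270.2, 199, 114 and 641 units in WT replicates 1 to 5. KO replicate 2 lay among the lower WT livers and WT replicate 5 among the higher KO livers. Within a genotype the highest liver stood 7.78-fold above the lowest in KO and 5.63-fold in WT. The log2 difference was 1.18 ± 0.49 (SE), beside a within-genotype SD of 1.04, and it did not pass (limma adjusted p = 0.4).

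Hpx (chr7:105591611-105600116) encodes hemopexin, which binds free haem. It read 2179.5, 2194, 2813, 1848 and 3846 units in KO replicates 1 to 5, against 1812, 1705, 2030.2, 1571 and 1772 units in WT replicates 1 to 5. Of the 5 KO livers, 4 lay above every WT liver, and KO replicate 4 lay among them. Its spread in WT livers was narrow, with a coefficient of variation of 9.45% against 30.7% in KO livers. The log2 difference was 0.49 ± 0.15 (SE; limma adjusted p = 0.213), and an exact permutation test over livers (two-sided, unadjusted) gave p = 0.0159.

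Hamp (chr7:30942368-30944029) encodes hepcidin, the hormone that lowers iron export by degrading ferroportin. It read 772, 518, 759, 850.2 and 622 units in KO replicates 1 to 5, against 772, 644, 172, 163 and 208 units in WT replicates 1 to 5. The 5 KO livers lay close together, while the WT livers fell into separate sets, replicates 1 and 2 at the level of KO livers and replicates 3, 4 and 5 well under them. The coefficient of variation was 18.8% in KO and 74.6% in WT livers. The log2 difference was 1.16 ± 0.37 (SE; limma adjusted p = 0.246, two-sided exact permutation p = 0.103). A further probe set of Hamp separated the same WT livers, at 621, 487, 107, 109 and 146 units, beside 424 to 733 units in KO livers.

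Hamp2, the neighbouring hepcidin paralog, read 218, 152, 209.9, 203 and 162 units in KO replicates 1 to 5, against 193, 159, 52.4, 48.8 and 50.03 units in WT replicates 1 to 5. The low livers were those with low Hamp. Hamp and Hamp2 are near-identical copies, so that probes for either may read both, and their values are uncertain as separate measures. Among the 9301 other genes above the floor on every array, Hamp2 had the pattern most like Hamp (Pearson r = 0.99 over 10 livers with genotype means removed), followed by Emc7 (0.91) and Itpripl2 (0.90). Of the 20 nearest tested genes along chromosome 7, 10 on each side, none but Hamp2 had an r above 0.54, and the median was -0.04. Likeness here is a description that largely restates the split of the WT livers. These genes and neighbours were looked up after the Hamp values had been seen.

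**Figure D2:**
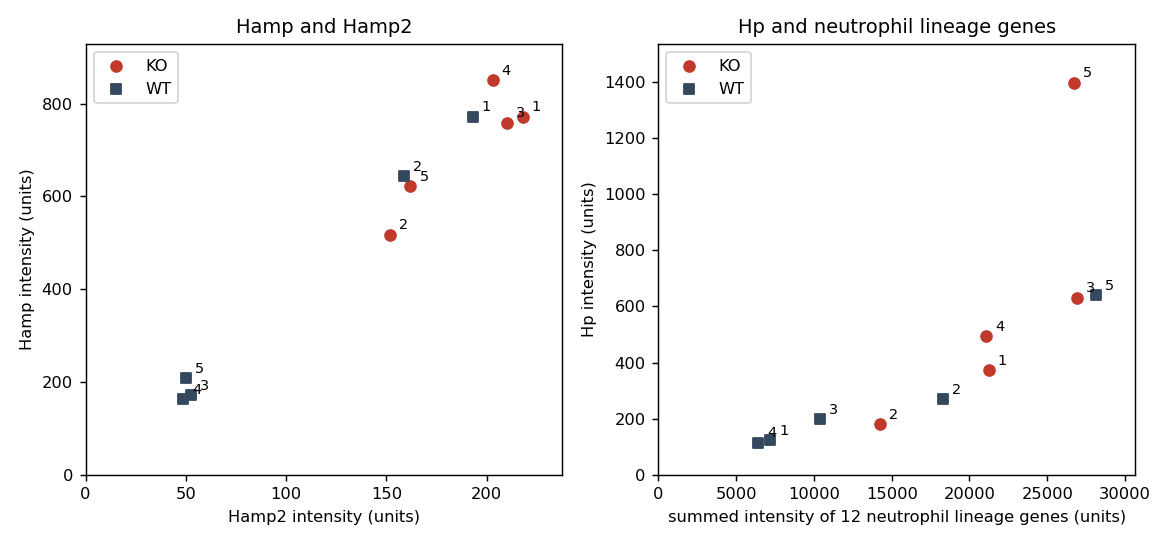
Left, Hamp against Hamp2 intensity (units), and right, Hp intensity against the summed intensity of 12 neutrophil lineage genes (units), with KO livers as circles and WT livers as squares, each marked with its replicate number. WT replicates 3 to 5 form a low set for both hepcidin genes. Among WT livers Hp rises in the order of the neutrophil sum, from 114 units at a sum of 6394 to 641 units at 28110.2. Among KO livers replicate 2 is lowest in both. KO replicate 5 (1398 units of Hp) lies far above KO replicate 3 (631 units) at a similar neutrophil sum. The part of neutrophils in Hp was not tested.

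Itih4 (chr14:30886476-30901986) encodes a heavy chain of the inter-alpha-trypsin inhibitor family, a plasma protein. It read 1735, 1265, 1616, 1648 and 2822 units in KO replicates 1 to 5, against 813, 1166, 649, 568 and 1696 units in WT replicates 1 to 5. Every KO liver lay above WT replicates 1 to 4, and WT replicate 5 lay within the KO range. The mean was 1817 ± 589.7 units in KO and 978 ± 462 units in WT livers (SD, n = 5 each). Its log2 difference was 0.96 ± 0.26 (SE; limma adjusted p = 0.151), and 1.19 without WT replicate 5 (limma adjusted p = 0.0211). The related genes of the family gave -0.23 for Itih1, -0.02 for Itih2 and 0.30 for Itih3, and none of these passed.

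Lbp (chr2:158306493-158332852) encodes the lipopolysaccharide-binding protein, which hands bacterial lipopolysaccharide to CD14 and TLR4. It read 382, 368, 484, 481 and 591 units in KO replicates 1 to 5, against 299, 280.1, 299, 278 and 519.9 units in WT replicates 1 to 5. WT replicates 1 to 4 lay close together, below all KO livers, and WT replicate 5 lay far above them. The log2 difference of 0.48 ± 0.17 (SE) did not pass (limma adjusted p = 0.294), and without WT replicate 5 it was 0.65 (limma adjusted p = 0.0261). A dimmer Lbp probe set, at 37.4 ± 12.4 units in KO and 26.8 ± 18.1 units in WT livers, gave 0.36 ± 0.37.

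Among the serum amyloid A genes, whose products travel on high-density lipoprotein, Saa4 (chr7:46727992-46732603) is the form made without stimulation. It read 284, 368, 401, 320.5 and 439 units in KO replicates 1 to 5, against 232, 264, 176, 221 and 437 units in WT replicates 1 to 5. As for Lbp, WT replicates 1 to 4 lay below all KO livers and WT replicate 5 near the highest. The log2 difference was 0.50 ± 0.19 (SE; limma adjusted p = 0.357), 0.54 ± 0.23 by the further probe set, and 0.70 without WT replicate 5 (limma adjusted p = 0.0378).

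Saa3 (chr7:46711998-46719615), the form known in mice from macrophages and fat, was dim, at 56.9, 59.8, 46.4, 79.6 and 143 units in KO replicates 1 to 5, against 40.2, 55.2, 44.6, 25.3 and 92.1 units in WT replicates 1 to 5. The highest liver was replicate 5 in both genotypes. Its log2 difference of 0.59 ± 0.35 (SE) had a 95% interval of -0.15 to 1.34. Saa1 and Saa2, the major inducible forms, were not tested, since no liver read above 27.7 and 27.4 units.

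Crp (chr1:172698056-172699966) encodes C-reactive protein, which binds phosphocholine on bacteria and dying cells. It read 356, 306, 449, 298 and 414 units in KO replicates 1 to 5, against 189, 279, 359.8, 276 and 368 units in WT replicates 1 to 5. Apart from the low WT replicate 1, the genotypes covered much the same range. The log2 difference was 0.33 ± 0.17 (SE), with a 95% interval of -0.03 to 0.68.

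Serpina3n (chr12:104406646-104414334) encodes a serine protease inhibitor related to human alpha-1-antichymotrypsin. It read 19.6, 69.7, 31.9, 36.6 and 34.3 units in KO replicates 1 to 5, against 32.6, 66.2, 46.7, -20.3 and 8.96 units in WT replicates 1 to 5. In 2 WT livers it lay at or under the floor of 16 units, where values have no order. Its log2 difference of 0.22 ± 0.43 (SE) had a 95% interval of -0.69 to 1.13, and its sign turned in 4 of the alternatives tried, so no direction is given for it.

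**Figure D3:**
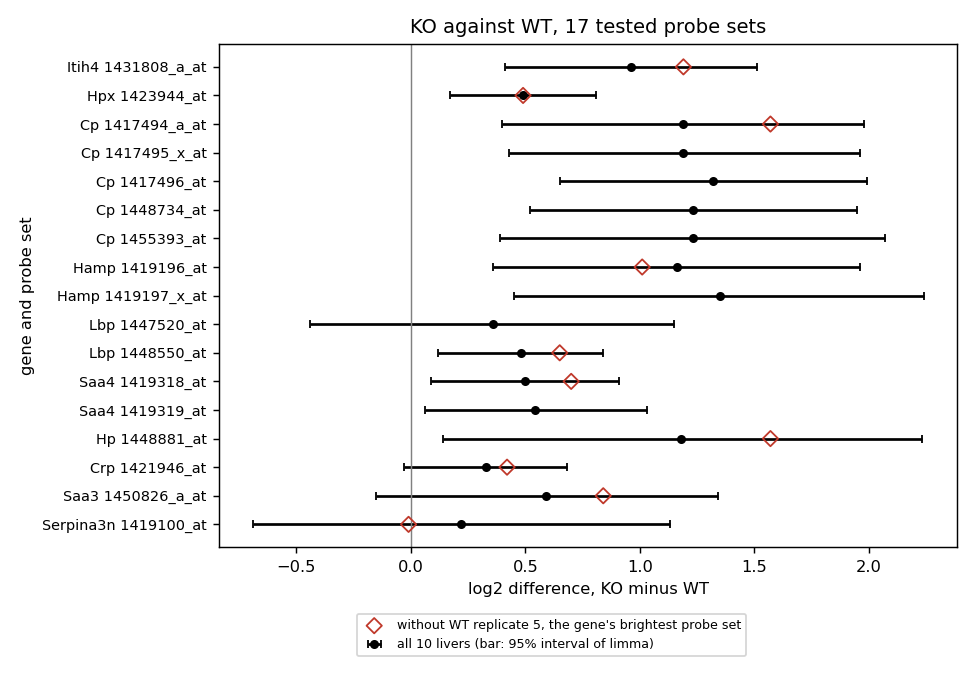
Log2 difference, KO minus WT, for the 17 tested probe sets of the 10 genes (black points, all 10 livers, bars the 95% interval from limma) and for each gene's brightest probe set without WT replicate 5 (open red diamonds). That liver was the highest WT liver in 7 of 10 genes, so leaving it out raises their differences by construction. The intervals of the brightest probe sets of Cp, Itih4, Hpx, Hamp, Hp, Lbp and Saa4 lie above 0 before adjustment, those of Crp, Saa3 and Serpina3n include 0, and the diamonds of Cp and Hp lie at 1.57.

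The spread between livers of 1 genotype was wide for these genes. The residual SD within genotypes had a median of 0.60 on the log2 scale over the 10 genes, against 0.26 over all tested genes. Set against limma's trend for genes of the same brightness, the members' SD had a median ratio of 2.78, against 1.01 over all tested genes. It was 6.77 for Hp, 5.9 for Cp, 5.89 for Hamp and 5.18 for Itih4, and from 1.62 to 3.13 for the other 6. For Hp 99.6% of tested probe sets had a smaller residual SD, for Hamp 97.7% and for Cp 97.6%. For Hpx, Crp and Lbp the shares were 48.7%, 51.8% and 52.5%.

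The same livers were high or low for many of the genes. WT replicate 5 was the highest WT liver in 7 of 10 genes and KO replicate 5 the highest KO liver in 7 of 10, against 23.4% and 20.4% of all tested genes. WT replicate 4 was the lowest WT liver in 8 of 10, against 19.95% of all tested genes, and KO replicate 2 the lowest KO liver in 5 of 10, against 21.7%. After subtracting each gene's mean, the median of the 10 genes was 0.10, 0.03, 0.42, 0.36 and 0.75 on the log2 scale in KO replicates 1 to 5, against -0.45, -0.20, -0.51, -1.09 and 0.44 in WT replicates 1 to 5. WT replicate 5 was thus the 1 WT liver with a positive value.

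**Figure D4:**
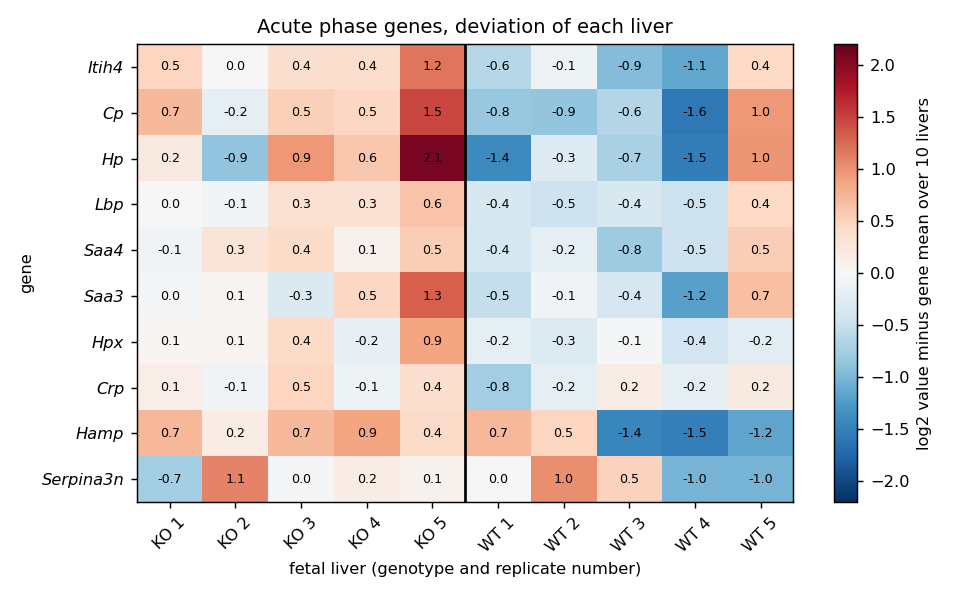
Log2 value of each gene in each liver minus the gene's mean over 10 livers (colour and number), with KO livers left of the line and WT livers right of it. KO replicate 5 is positive for all 10 genes, WT replicate 4 negative for all 10, and WT replicate 5 is positive for 7, with Hamp, Hpx and Serpina3n negative.

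Co-variation was measured as the correlation between genes over the 10 livers after each genotype's mean was removed, with an exact permutation test over the 14400 orders of livers within genotypes (two-sided) and Benjamini-Hochberg adjustment over 45 pairs. The 9 pairs with Hamp are not read as correlations, since its WT values fell into separate sets, and none passed. Of the other 36 pairs 30 were positive, with a median r of 0.53, while the median r of a member with all other tested genes was 0.00. All 6 negative pairs involved Serpina3n. In 5 pairs the adjusted permutation p was under 0.05, and 13 had an unadjusted p under 0.05. The 5 were Itih4 with Hp (r = 0.88, exact permutation p = 0.00208), Lbp with Hp (0.88, p = 0.00236), Itih4 with Cp (0.88, p = 0.00278), Cp with Hp (0.89, p = 0.00292) and Itih4 with Saa3 (0.88, p = 0.0034), each with an adjusted p of 0.0306. Their Spearman rho ran from 0.67 to 0.85, with permutation p adjusted over the pairs of 0.228 to 0.241.

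These relations were weaker when 2 livers were left out. Leaving out the extremes of a gene narrows its range and leaves fewer livers. A lower r and a higher p then follow for a true relation too, so this step cannot show what the relations rest on. From each pair the 2 livers farthest from the median of its first gene, in the order of the opening list, were left out. The other gene of the pair played no part in this choice, so pairs with the same first gene lose the same livers. In 12 of the 13 pairs these livers were KO replicate 5 and WT replicate 5. Without the livers left out no pair of the 13 kept an exact permutation p under 0.05. For the 5 adjusted pairs r was then 0.59 to 0.72, with exact permutation p of 0.0677 to 0.208. Within KO livers r was 0.82 to 0.98 for these 5 pairs, and within WT livers 0.84 to 0.93. Cp, Hp, Itih4, Lbp, Saa4 and Saa3, grouped after the values were seen, had r of 0.63 to 0.90 over their 15 pairs. Without the 2 livers left out of each pair, however, r ran from -0.34 for Cp with Saa4 to 0.72 for Cp with Hp. It was 0.10 for Lbp with Saa3, 0.11 for Lbp with Saa4 and 0.16 for Itih4 with Lbp. All these genes share the array and its normalization.

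**Figure D5:**
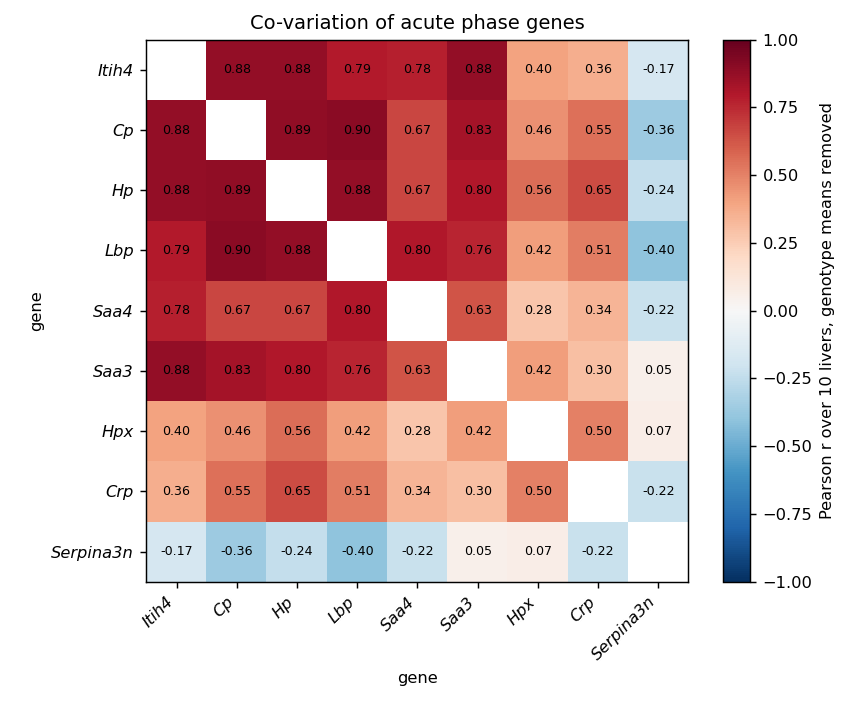
Pearson r between 9 acute phase genes over 10 livers with genotype means removed (colour and number); Hamp is left out because its WT values fell into separate sets. Cp, Hp, Itih4, Lbp, Saa4 and Saa3 have r of 0.63 to 0.90 with each other when all livers are kept, and Serpina3n has r of -0.40 to 0.07 with the other 8.

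The genes whose pattern over the livers was most like the mean pattern of the 9 members above the floor on every array were C8b (r = 0.97), Ttc36 (0.96), Cyp2c23 (0.96), Pbld1 (0.95), Fah (0.95), Cyp2d26 (0.94), Fgg (0.94), Fga (0.94), Pdzk1 (0.94) and Slc38a3 (0.94), out of 11768 genes over 10 livers with genotype means removed. The 9 members include Hamp, whose median r with the other members was -0.04, and leave out Serpina3n. C8b encodes a chain of complement component C8, Fah an enzyme of tyrosine breakdown, and Fga and Fgg chains of fibrinogen. C8b read 264, 187, 279, 318 and 514 units in KO replicates 1 to 5, against 241, 304, 259.7, 196 and 496 units in WT replicates 1 to 5. Its replicate 5 was the highest in both genotypes, and its log2 difference was 0.06 ± 0.25 (SE), which was not tested against those of the members. Ttc36, Cyp2c23, Pbld1 and Fah gave -0.08, 0.05, -0.06 and 0.13, while Fga gave 0.57 ± 0.18 (SE; limma adjusted p = 0.243) and Fgg 0.44 ± 0.13 (limma adjusted p = 0.189).

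Other genes of the response were taken from lists drawn up by function. Of 36 further positive acute phase genes 32 had a probe set and 26 were tested. Serpina10, the inhibitor of coagulation factor Xa, was the 1 that passed, at 1385 ± 97.9 units in KO and 1005 ± 109 units in WT livers (SD, n = 5 each; log2 0.47 ± 0.08, limma adjusted p = 0.0269). This was 1 of 26, against 0.161% of all tested genes called higher. At an unadjusted p under 0.05, 11 of 26 were higher, against 6.31% of all tested genes, and 0 lower, against 5.71%. A positive difference was found in 22 of 26, against 50.5% of all tested genes, with a median of 0.34. Fibrinogen chain Fgb gave 0.51 and the neutrophil and liver protein gene Lcn2 1.62. The brightest members, Serpina1b, Mt1 and Mt2, gave 0.11, 0.05 and -0.03. Orm1, Orm2 and Lrg1 were not tested, with no value above 12.4, 29.4 and 28 units.

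Negative acute phase genes, whose plasma proteins are lowered in inflammation, did not pass in any of 9 tested. Their median was 0.08, and 7 of 9 were positive, against 50.5% of all tested genes, with 0 at an unadjusted p under 0.05. The brightest, Alb, Ttr and Apoa1, gave -0.03, -0.04 and 0.03. The likeness of the 9 to the mean pattern of the acute phase genes had a median of 0.56, against 0.79 for the further positive genes. It ran from -0.32 for Rbp4 and -0.21 for Serpina6 to 0.85 for Apoa1 and 0.89 for Ahsg. The pattern over livers was thus not confined to genes raised in inflammation. Alb lies near the top of the array's range at 15063 ± 949 units in KO and 15407 ± 349 units in WT livers (SD, n = 5 each).

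Of the 25 tested genes of interleukin 6 and interleukin 1 signalling, 1 passed, against 0.161% of all tested genes called higher. This was Nfkbia, the NF-kappa-B inhibitor and target. It averaged 649 ± 92.4 units in KO and 401 ± 44.4 units in WT livers (SD, n = 5 each; log2 0.69 ± 0.11, limma adjusted p = 0.0196), with no overlap, as all KO livers read at least 494 units and no WT liver above 468. Every KO liver lay above every WT liver in 1.45% of all tested genes. The list's median was 0.13. At an unadjusted p under 0.05, 6 of 25 were higher, against 6.31% of all tested genes, and 1 lower, against 5.71%. The lower one was Jak2, a kinase of cytokine receptors, at 351 ± 20.7 units in KO and 456 ± 39 units in WT livers (SD, n = 5 each). Its log2 difference was -0.37 ± 0.08 (SE, limma adjusted p = 0.0709). Every KO liver lay below every WT liver, as in 1.53% of all tested genes. Cebpd, a C/EBP factor induced in the acute phase, gave 0.80 ± 0.19, and Socs3, the feedback inhibitor of interleukin 6 signals, 0.76 ± 0.21, and neither passed over all probe sets. Stat3 gave 0.11, and the brightest genes of the list other than Nfkbia gave 0.26 for the liver factor Hnf4a, 0.10 for the kinase Pim1 and 0.02 for Jak1. The cytokine genes Il6, Tnf and Osm were not tested, with no value above 25.5, 31.6 and 42.7 units.

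In the list of glucocorticoid and BMP control 0 of 18 tested genes passed, with a median of 0.20. At an unadjusted p under 0.05, 1 of 18 was higher, against 6.31% of all tested genes. This was Id1, a BMP target, at 0.31 ± 0.15. Tfr2, the iron-sensing receptor upstream of Hamp, gave 0.11, the BMP receptor Bmpr2 0.15 and the glucocorticoid target Fkbp5 0.14. Among 12 tested partners and receptors 0 passed (4 of 12 at an unadjusted p under 0.05, all higher, against 6.31% of all tested genes). Hmox1, which breaks down the haem that hemopexin delivers, gave 0.50 ± 0.13, Slc40a1, which encodes ferroportin, 0.23 ± 0.09, and Scarb1, a receptor for high-density lipoprotein, -0.10 ± 0.10. Cd163, the haptoglobin-haemoglobin receptor, was not tested, with no value above 26.1 units. Of 13 relatives of Serpina3n, Hamp and the Saa genes only Serpina3i and Hamp2 were tested, and neither passed.

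Markers of some other cells moved with these genes, and those of others did not. The likeness of a sum to the mean pattern of the acute phase genes was 0.87 for neutrophil lineage, 0.90 for monocyte and macrophage and 0.88 for hepatocyte genes. It was 0.59 for mesothelial, 0.33 for bile duct and 0.04 for endothelial genes. Megakaryocyte, stellate and erythroid sums gave -0.18, -0.19 and -0.70. The summed intensity of all 12 neutrophil lineage genes was 14249 to 26916 units in KO livers, against 6394 to 28110.2 units in WT livers, and none of the 12 was at or under the floor on every array. WT replicate 5 had the highest WT sum and WT replicate 4 the lowest, as for most acute phase genes, and KO replicate 2 the lowest KO sum. The highest KO sum was in KO replicate 3, at 26916 units, ahead of 26687 units in KO replicate 5. Of the 12, 0 passed and 9 were higher at an unadjusted p under 0.05, against 6.31% of all tested genes. The list's median log2 difference was 0.89. Mpo and Elane went the other way, at -0.24 and -0.11, and Prtn3 gave 0.30. The brightest, S100a9, S100a8 and Ngp, gave 0.93, 0.75 and 1.65. The 16 monocyte and macrophage genes with a probe set summed to 9003 to 11620.5 units in KO livers, against 4401 to 10305 units in WT livers, again with WT replicate 5 highest and WT replicate 4 lowest among WT livers. Of 15 tested 0 passed, and 7 were higher at an unadjusted p under 0.05, against 6.31% of all tested genes. Cd163 was the 1 not tested. The brightest, Lyz1, Lyz2 and Cd5l, gave 1.20, 1.28 and 0.51. In WT replicate 5 Lyz1 and Lyz2 read 2772 and 2185 of the summed 10305 units. The 15 genes did not follow the livers alike. Their likeness to the acute phase pattern ran from -0.53 for Cd68 to 0.90 for Lyz1, with a median of 0.53 and 0.20 for Cd5l. For Cd68 WT replicate 5 was the lowest WT liver, at 78.2 units. The part of neutrophils, monocytes and macrophages in the acute phase values was not tested.

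Hepatocyte and hepatoblast genes (9 with a probe set) summed to 68963 to 81815 units in KO livers, against 69561 to 78939 units in WT livers. Replicate 5 was highest in each genotype, and the median difference was 0.03. At an unadjusted p under 0.05, 2 of 9 were higher, against 6.31% of all tested genes, and 0 lower, against 5.71%. As in the other sums, the brightest genes weigh most, here Afp, Alb, Ttr and Apoa1. Afp lies near the top of the array's range, at the same 16538 units in KO and WT replicates 1, 4 and 5. Whether hepatocyte content varied between livers was not tested.

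Erythroid genes summed to 26364 to 35900.4 units in KO livers, against 28902 to 35215 units in WT livers. Of 7 tested, 0 passed and 5 were lower in KO livers at an unadjusted p under 0.05, namely Klf1, Epor, Ank1, Alas2 and Rhd, with log2 differences of -0.16, -0.44, -0.29, -0.24 and -0.27, and 0 were higher, against 5.71% of all tested genes lower and a list median of -0.24. The 7 genes did not follow the livers alike. The likeness to the mean pattern of the acute phase genes, with genotype means removed, was -0.85 for Hbb-y, -0.21 for Epor, 0.26 for Slc4a1, 0.59 for Rhd, 0.60 for Ank1, 0.73 for Klf1 and 0.76 for Alas2, with a median of 0.59. WT replicate 5 was the highest WT liver for Slc4a1, Klf1, Alas2 and Rhd, as for most acute phase genes. Hbb-y, the embryonic beta-like globin of the first red cells, read 8701, 16088, 10763, 13061 and 6211 units in KO replicates 1 to 5, against 12522, 12522, 12127, 13061 and 3507 units in WT replicates 1 to 5. Hbb-y alone among the 7 was thus lowest in replicate 5 of both genotypes. The part of erythroid cells in the acute phase values was not tested. All 8 megakaryocyte and platelet genes were lower in KO livers at an unadjusted p under 0.05, against 5.71% of all tested genes, with a median of -1.11. Of these 8, 5 passed, against 0.195% of all tested genes called lower. They were Pf4, Ppbp, Itga2b, Plek and Itgb3, with log2 differences of -1.39, -1.38, -0.83, -0.98 and -1.11 (limma adjusted p from 0.000216 to 0.0407). The 8 summed to 1672 to 2683 units in KO livers, against 3899.9 to 5677 units in WT livers. Stellate, endothelial, bile duct and mesothelial genes had 0 calls, with median differences of 0.03, 0.16, 0.39 and 0.16. Of 9, 8, 2 and 3 tested, 0, 2, 1 and 1 were higher at an unadjusted p under 0.05, against 6.31% of all tested genes. At this threshold 0 were lower, against 5.71%.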

How the data were processed

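RNA from 10 individual fetal livers, 5 KO and 5 WT by the sample titles, was hybridised to 1 array each, after biotin labelling of cRNA with an Affymetrix one-cycle kit, per the labels' protocols. The values deposited by the authors are intensities, linear by their range, for every probe set on every array. Of these, 21.5% are at or below 0. Neither software nor scaling is given in the sources used here. Here the intensities were quantile-normalized between arrays, values under 16 were set to 16, and log2 was taken. A much lower floor (0.000978, the lowest positive normalized value) spreads dim values over many log2 units and was used as an alternative. Probe sets with a mean of at least 16 over all livers were tested (24218 of 45037, with 7.9% of their values at the floor). KO was compared with WT with limma 3.58.1 (R 4.3.3), using a linear model and empirical Bayes variances that follow a trend in brightness (two-sided), adjusted by Benjamini-Hochberg over all tested probe sets at 0.05. Each liver is a separate fetus, and the number of livers limits the precision.

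Of the probe sets 34945 carry 1 symbol, 932 several and 9160 none. Only those with 1 symbol were named, and the probe set brightest in mean log2 value represents its gene. Genes named are all members, the 10 most alike genes, and, of each pathway list, the 3 brightest tested genes and any that passed. Of the marker lists, genes that passed and some of the brightest are named. Other genes named (further Itih genes, Fgb, Lcn2, Jak2, Cebpd, Socs3, Stat3, Id1, Mpo, Elane, Prtn3, erythroid genes, untested cytokine and inducible genes, genes most like Hamp and its neighbours) were chosen after their values were seen. The members and lists were chosen with earlier results of these data known. Correlations used Python 3.11.15 and scipy 1.17.1, where exact enumeration took the place of the planned resampling, and figures matplotlib 3.10.9. Promoter windows and gene positions are RefSeq's (GRCm38.p6). The fit and the correlation test were tested on simulated data. Same-numbered KO and WT livers were checked for pairing, and the labels name no shared litter or batch. Alternatives covered floor, offset, normalization, filter, variance trend, array weights, a replicate block, other probe sets and leaving out each liver.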

Additional observations from a re-analysis of the deposited data

Results flagged for a closer look

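Lbp in WT replicate 5 stood apart from the other WT livers, at 519.9 units (log2 9.02, nearest 8.23), with a Dixon ratio of 0.882 against a critical value of 0.71. It was the 1 value so far from the others among 20 groups of 5 livers (10 genes in 2 genotypes), where chance gives about 1 in 20 groups.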

How the results depend on the processing

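In no setting of normalization, floor, offset, filter, variance trend or array weights was any of the 10 genes called, although the median log2 difference ran from 0.48 with an offset of 16 to 0.78 with the lowest floor. With the replicate number as a block limma called 3 of 10, Itih4, Cp and Lbp (adjusted p = 0.0204, 0.0158 and 0.0482), against 1% of all tested genes in either direction. This model called 175 probe sets in all, against 57 without the block. Same-numbered livers deviated together with r of 0.04 to 0.14. KO replicates 1, 3, 4 and 5 each correlated best with the WT liver of their own number, and KO replicate 2 with WT replicate 1 (0.08). Whether the numbers mark pairs was not tested, and the samples may share only a number. The count of genes called ran from 0 to 4 when 1 liver was left out, with 4 only without WT replicate 5. The median difference then ran from 0.41 (without KO replicate 5) to 0.77 (without WT replicate 5). Of 207 values of single genes under alternatives, 196 kept direction and side of the threshold, 7 became called (3 with the block, 4 without WT replicate 5) and 4 reversed, all of Serpina3n: -0.04 with a floor of 32, -0.03 without KO replicate 2, and -0.01 without WT replicate 4 and without WT replicate 5, in a range of -0.03 to 0.50 with 1 liver left out. With the lowest floor Serpina3n gave 3.18. The number of probe sets called over the whole array ran from 4 (no filter) to 175, against 57. The cause of these shifts was not tested. The median r over all 45 pairs was 0.42, from 0.32 without normalization to 0.65 with genotype means kept, and from 0.29 (without KO replicate 5) to 0.53 with 1 liver left out, an alternative chosen after seeing the data. Serpina3n and Saa3 lie near the floor, where small differences cannot be measured.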

Other observations

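The low Hamp values of WT replicates 3, 4 and 5 were found in livers of either sex by Xist, the RNA of the inactive X chromosome. It read 19 units in WT replicate 3 and 2497 and 2521 units in WT replicates 4 and 5. Among the other livers Xist read 2477 units in WT replicate 1 and 2596 and 2494 units in KO replicates 1 and 4. It read at most 39.5 units in WT replicate 2 and KO replicates 2, 3 and 5. Both genotypes thus mixed the sexes, in unequal shares, and sex was not part of the model. Tcerg1l, on chromosome 7 and among the 10 genes most like Hamp, read 94.8, 77.7, 96.2, 85.4 and 59.3 units in KO replicates 1 to 5, against 91.4, 111, 35.4, 33.8 and 59.1 units in WT replicates 1 to 5, and Mapkap1, on chromosome 2, read 142 to 159 units in the low-Hamp livers and 163 to 211 units in all others. These genes were found by a search over the same 10 livers, and their likeness is a description with no test.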
